A study of Oryza sativa Indica Group with 12 samples.

Results

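Small heat shock proteins of rice roots were followed through 26 probe sets of 19 genes, out of 57258 probe sets tested. Members were taken by name, as HSP followed by a size from 14 to 27 kDa, together with HSP18.1 and LOC_Os03g16030, which are the same gene. That gene was picked from the study's tables of changed genes, made from these arrays, although the name rule takes it as well. The array's annotation names these genes only by LOC numbers, so the HSP names come from the RefSeq gene table (assembly ASM3414082v1), matched on gene identifier. Of 22 genes with such a name there, 3 (HSP16.9C, HSP18.9 and HSP19.0) have no probe set listed, 14 have 1 probe set, 3 have 2 and 2 have 3.

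Root RNA was hybridised to 12 Affymetrix Rice Genome Arrays, 3 for each of 4 groups of hydroponically grown indica rice. The groups were BR-IRGA 409, a cultivar susceptible to Fe toxicity, with excess Fe (500 mg/L) or control Fe (6.5 mg/L), and EPAGRI 108, a tolerant cultivar, with the same excess Fe or control Fe. All plants received FeSO4 as the Fe source, and treatment lasted 3 days. The design asks how the roots of each cultivar responded to excess Fe and where the 2 cultivars differed. Labels call the arrays biological replicates without saying whether plants were pooled, so p-values measure the spread between these samples.

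Small heat shock proteins are chaperones that bind unfolding proteins without using ATP and hold them in a state from which other chaperones can refold them. In plants they form families in the cytosol, endoplasmic reticulum, mitochondria, plastids and peroxisomes. Many are scarce in unstressed tissue and are induced by heat, oxidants and metals through heat shock factors, which are transcription factors that bind heat shock elements.

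Levels are log2 values after RMA, as the authors deposited them, so a difference of 1 is a 2-fold difference. Control probes that match no rice transcript reached between 4.51 and 5.01 on an array, and a value at or below that of its own array is called "under the control level". A probe set was called when its adjusted p was under 0.05 over all 57258 probe sets and its change was at least 3-fold, both from a limma fit of all 12 arrays. Of the 26 members, 13 lay above the control level on all arrays, 9 on some and 4 on none. Root genes fixed as a check (the silicon transporters Lsi1 and Lsi2, the Casparian strip protein OsCASP1 and others) lay above it on all arrays for 12 of 14 probe sets, and 1 lay above it on no array. Photosynthetic leaf genes did so for 9 of 12, with 2 above it on no array, and the median of this leaf list on an array was 6.61 to 7.01 in BR-IRGA 409 with excess Fe, against 7.25 to 7.90 in its control. In EPAGRI 108 it was 6.13 to 6.69 with excess Fe and 6.38 to 7.24 in control. The median of the root list was also lower in BR-IRGA 409, at 8.53 to 8.93 with excess Fe against 9.09 to 9.74 in control. In EPAGRI 108 the root list ranges overlapped, at 8.73 to 9.22 with excess Fe and 9.14 to 9.34 in control. The part of leaf transcripts in the values below was not tested.

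Upon excess Fe treatment the susceptible cultivar BR-IRGA 409 had higher levels of 5 small heat shock protein genes on at least 1 probe set each. HSP18.1 was called on both of its probe sets, HSP17.4 on its single one, HSP18.0 and HSP18.6 on 1 of 3, and HSP21.9 on 1 of 2. In whole roots, more cells that express a gene and more RNA per cell cannot be told apart. These genes were called on 6 probe sets of 26, against 1.10% of all probe sets tested. HSP18.1 was named beforehand from tables made from these arrays, so this count is not independent of how it was chosen. HSP23.2 was the only member called lower, against 0.250% of all probe sets. Without the minimum fold, 9 members were higher and 2 lower in the limma fit, against 4.24% and 3.41% of all probe sets. The median change of the 26 members was 0.29 in log2 (0.23 with groups under the control level set to it), beside -0.035 over all probe sets.

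In the tolerant cultivar EPAGRI 108 a single member, HSP17.4, was called higher with excess Fe, against 0.283% of all probe sets. None was called lower, by limma or by the methods' t-test, against 0.0227% of all probe sets, although 2 had an unadjusted p under 0.05 in that direction. Directions in EPAGRI 108 follow the labels of the arrays. They run opposite to the study's own tables, which place HSP17.4 among the genes that were lower with excess Fe in this cultivar. The paper's RT-qPCR of selected genes, none named as HSP17.4, matched its array results in most cases. Some genes with opposite directions in the 2 cultivars did not show the fall, for which the paper proposes low expression in control. The median change of the members was 0.08 (0.07 with groups under the control level set to it), beside -0.015 over all probe sets.

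The response differed between the cultivars for HSP18.1 and HSP18.0. The interaction, the BR-IRGA 409 response minus the EPAGRI 108 response, was called positive for 3 members of these 2 genes, against 0.0856% of all probe sets. Here too HSP18.1 had been named from tables made from these arrays, so the count is not independent of that choice. No member was called with a negative interaction, against 0.0541% of all probe sets, and none had an unadjusted p under 0.05 on that side in limma. The interaction was not fitted by another tool. It rests on the direction that the labels give EPAGRI 108. With the EPAGRI 108 response turned round, an alternative chosen after seeing the data, 8 members were called, 7 positive and 1 negative. Of all 57258 probe sets, 1299 were then called positive and 539 negative, against 49 and 31 by the labels. Turning the response adds it to that of BR-IRGA 409, so probe sets that moved the same way in both cultivars by the labels tend to be called. The 3 of HSP18.1 and HSP18.0 were among the 8 members. The others were HSP17.4, HSP18.6 (2.07 on Os.49648.1.S1_s_at), HSP21.9 (2.14 on Os.55330.1.S1_at) and HSP26.2 (1.60), called positive, and HSP23.2, called negative. Which further members differ between the cultivars therefore depends on that direction.

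**Figure D1:**
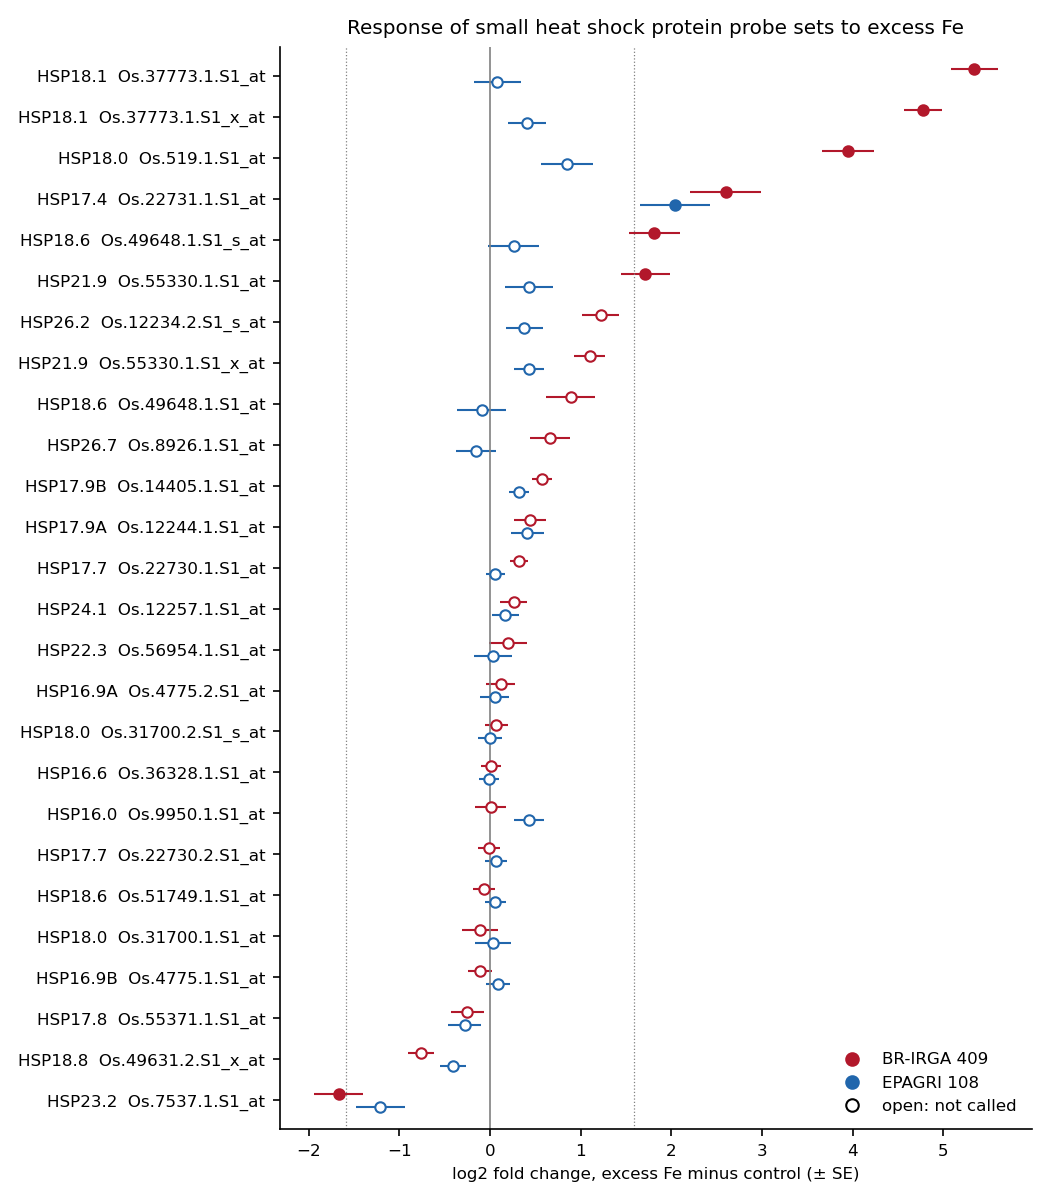
Change of each of the 26 small heat shock protein probe sets with excess Fe, as log2 of excess Fe over control (horizontal axis) with the standard error of the limma fit, in BR-IRGA 409 (red, upper point of each row) and EPAGRI 108 (blue, lower point). Filled points were called and dotted lines mark 3-fold; the BR-IRGA 409 responses of HSP18.1 (5.34 and 4.78) and of HSP18.0 (3.95) stand far right of their EPAGRI 108 points, whereas the points of HSP17.4 (2.60 and 2.04) lie near each other.

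HSP18.1 (LOC_Os03g16030), whose gene record also lists OSHSP18.0 as a synonym, is a cytosolic class I protein. On the probe set Os.37773.1.S1_at, BR-IRGA 409 roots read 9.57, 10.61 and 9.58 with excess Fe, against 4.57, 4.26 and 4.91 in control. In EPAGRI 108 the same probe set read 4.41, 4.49 and 4.15 with excess Fe, against 4.51, 4.16 and 4.12 in control. The 3 BR-IRGA 409 excess Fe arrays thus stood apart, while all other 9 arrays lay under the control level. HSP18.1 was at least 32.6-fold higher with excess Fe in BR-IRGA 409, the control arrays being set to their control level (log2 change 5.34 ± 0.26, SE, limma adjusted p = 3.46e-07). No fold is given for EPAGRI 108, where both groups lay under the control level. The order of the levels was therefore BR-IRGA 409 with excess Fe, then the other 3 groups, among which no order can be read.

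The second HSP18.1 probe set, Os.37773.1.S1_x_at, belongs to a kind whose probes can also match other transcripts. It read 10.72, 11.55 and 10.59 in BR-IRGA 409 with excess Fe, against 6.19, 6.00 and 6.34 in control. EPAGRI 108 gave 6.24, 6.42 and 6.35 with excess Fe and 6.02, 5.99 and 5.76 in control. All values were above the control level, and the groups of each cultivar did not overlap. The change was 4.78 ± 0.21 (SE, limma adjusted p = 1.33e-07) in BR-IRGA 409, a 27.4-fold rise. For EPAGRI 108 it was 0.41 ± 0.21 (adjusted p = 0.550), with a 95% confidence interval from -0.04 to 0.86. The interaction was 4.36 ± 0.29 on this probe set (limma adjusted p = 2.04e-05). It was 5.25 ± 0.36 on Os.37773.1.S1_at (adjusted p = 2.68e-05), where the EPAGRI 108 values were under the control level.

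HSP17.4 (LOC_Os03g16020), also a cytosolic class I protein, lies next to HSP18.1 in the gene order of the RefSeq assembly. Its probe set Os.22731.1.S1_at read 9.12, 9.81 and 9.41 in BR-IRGA 409 with excess Fe, against 7.02, 6.89 and 6.63 in control. The change in this cultivar was 2.60 ± 0.39, a 6.06-fold rise (limma adjusted p = 0.00153). EPAGRI 108 read 8.64, 9.81 and 8.91 with excess Fe, against 8.11, 6.61 and 6.52 in control. Groups did not overlap in either cultivar, but control replicate 1 of EPAGRI 108 was far above the other 2 controls. The EPAGRI 108 change was 2.04 ± 0.39, a 4.12-fold rise (limma adjusted p = 0.0392), and it lost its call with same-numbered arrays as pairs within each cultivar (replicate block, adjusted p = 0.0713). Over all alternatives tried its adjusted p ran from 0.000161 to 0.685, the highest being that of the methods' t-test. The responses of the cultivars differed by 0.56 ± 0.55, with an interval from -0.64 to 1.76 (limma adjusted p = 1). That difference holds for the direction of the labels only: with the EPAGRI 108 response turned round it was 4.64 and called (limma adjusted p = 0.000249). On that side 1299 of all 57258 probe sets were called as well.

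This control array mattered for EPAGRI 108 as a whole. All 162 probe sets called higher with excess Fe in EPAGRI 108 had control replicate 1 as the highest of the 3 controls. Without it, the HSP17.4 change was 2.56 (limma adjusted p = 0.000363), and without both EPAGRI 108 arrays numbered 1 it was 2.80 (adjusted p = 0.000161). The call also held without excess Fe replicate 1 of EPAGRI 108 (2.28, adjusted p = 0.0181). Leaving out any other single array, of either cultivar, ended it, with adjusted p from 0.0534 to 0.213 and changes from 1.70 to 2.15. This was not particular to HSP17.4: in each of those 10 fits limma called 0 of the 57258 probe sets in EPAGRI 108, in either direction. Leaving out control replicate 1 instead gave 457 probe sets called higher, against 162 with all arrays.

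HSP18.0 (LOC_Os01g08860), a class II cytosolic protein, is represented by 3 probe sets that disagreed. On Os.519.1.S1_at, the probe set in the study's tables, BR-IRGA 409 read 8.53, 9.73 and 8.62 with excess Fe, against 4.90, 4.92 and 5.20 in control. EPAGRI 108 read 9.67, 10.05 and 9.84 with excess Fe, against 9.48, 8.89 and 8.64 in control. Only the BR-IRGA 409 control was low, with 2 of its 3 arrays just above the control level. The change was 3.95 ± 0.29, a 15.5-fold rise, in BR-IRGA 409 (limma adjusted p = 1.04e-05), and 0.85 ± 0.29 in EPAGRI 108 (adjusted p = 0.248, interval from 0.22 to 1.47). The interaction was 3.11 ± 0.41 (limma adjusted p = 0.00671), and with 16 added to the linear values it was 2.59 (adjusted p = 0.0632) and no longer called.

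Of the other 2 probe sets of HSP18.0, only Os.31700.2.S1_s_at could show a change in BR-IRGA 409. Os.31700.1.S1_at read 4.01, 3.67 and 4.15 in BR-IRGA 409 with excess Fe, against 4.53, 4.02 and 3.62 in control, all under the control level, so no change can be read there. In EPAGRI 108 it read 8.54, 8.50 and 8.56 with excess Fe, against 8.74, 8.44 and 8.32 in control. This probe set separated the cultivars. Os.31700.2.S1_s_at, of a kind whose probes are shared by several transcripts, read 8.36, 8.07 and 8.23 in BR-IRGA 409 with excess Fe, against 8.33, 8.09 and 8.04 in control. Its EPAGRI 108 values were 8.65, 8.49 and 8.62 with excess Fe and 8.74, 8.62 and 8.40 in control. Changes with excess Fe on this shared probe set were 0.07 ± 0.13 in BR-IRGA 409 and 0.00 ± 0.13 in EPAGRI 108 (limma adjusted p = 0.855 and 1).

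HSP18.6 is a class III protein. Its shared probe set Os.49648.1.S1_s_at read 5.88, 7.13 and 6.02 in BR-IRGA 409 with excess Fe, against 4.80, 4.40 and 4.38 in control, the control being under the control level. EPAGRI 108 read 6.42, 6.45 and 5.98 with excess Fe, against 6.18, 6.16 and 5.73 in control. HSP18.6 was at least 2.73-fold higher with excess Fe in BR-IRGA 409 (log2 change 1.81 ± 0.28, limma adjusted p = 0.00188), and its EPAGRI 108 change was 0.26 ± 0.28 (adjusted p = 0.917). The difference between the responses, 1.55 ± 0.40, did not pass (limma adjusted p = 0.336). Without excess Fe replicate 2 of BR-IRGA 409 the BR-IRGA 409 change was 1.42, under 3-fold.

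On a second HSP18.6 probe set, Os.49648.1.S1_at, BR-IRGA 409 read 4.96, 5.66 and 4.94 with excess Fe, against 3.82, 4.85 and 4.21 in control. This control was also under the control level, and the change of 0.89 ± 0.27 did not pass (limma adjusted p = 0.0739). EPAGRI 108 read 4.97, 5.51 and 5.16 with excess Fe and 5.0, 5.66 and 5.25 in control. These groups overlapped in EPAGRI 108 and did not in BR-IRGA 409. The third HSP18.6 probe set, Os.51749.1.S1_at, read 3.05 to 3.40 over the excess Fe arrays and 3.09 to 3.34 over the control arrays, all under the control level.

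HSP21.9 was low on both of its probe sets. Os.55330.1.S1_at read 4.46, 5.89 and 5.08 in BR-IRGA 409 with excess Fe, against 3.52, 3.39 and 3.39 in control. EPAGRI 108 read 3.91, 4.34 and 4.21 with excess Fe and 3.86, 3.52 and 3.81 in control. Only 2 BR-IRGA 409 excess Fe arrays lay above the control level, so the called change of 1.71 ± 0.27 (limma adjusted p = 0.00201) means no more than at least 1.19-fold. Os.55330.1.S1_x_at read 5.69, 6.04 and 6.22 in BR-IRGA 409 with excess Fe, against 4.90, 5.05 and 4.68 in control, a change of 1.10 ± 0.17 that passed the adjusted p alone (0.00162). In EPAGRI 108 it read 5.15, 5.54 and 5.50 with excess Fe and 5.15, 5.01 and 4.74 in control, and the change of 0.43 ± 0.17 did not pass (adjusted p = 0.338). On Os.55330.1.S1_at the BR-IRGA 409 change without excess Fe replicate 2 was 1.34, under 3-fold.

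Excess Fe replicate 2 was the highest of the BR-IRGA 409 excess Fe arrays on all 6 members called higher. The same array was the highest for 364 of the 627 probe sets called higher in this cultivar.

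**Figure D2:**
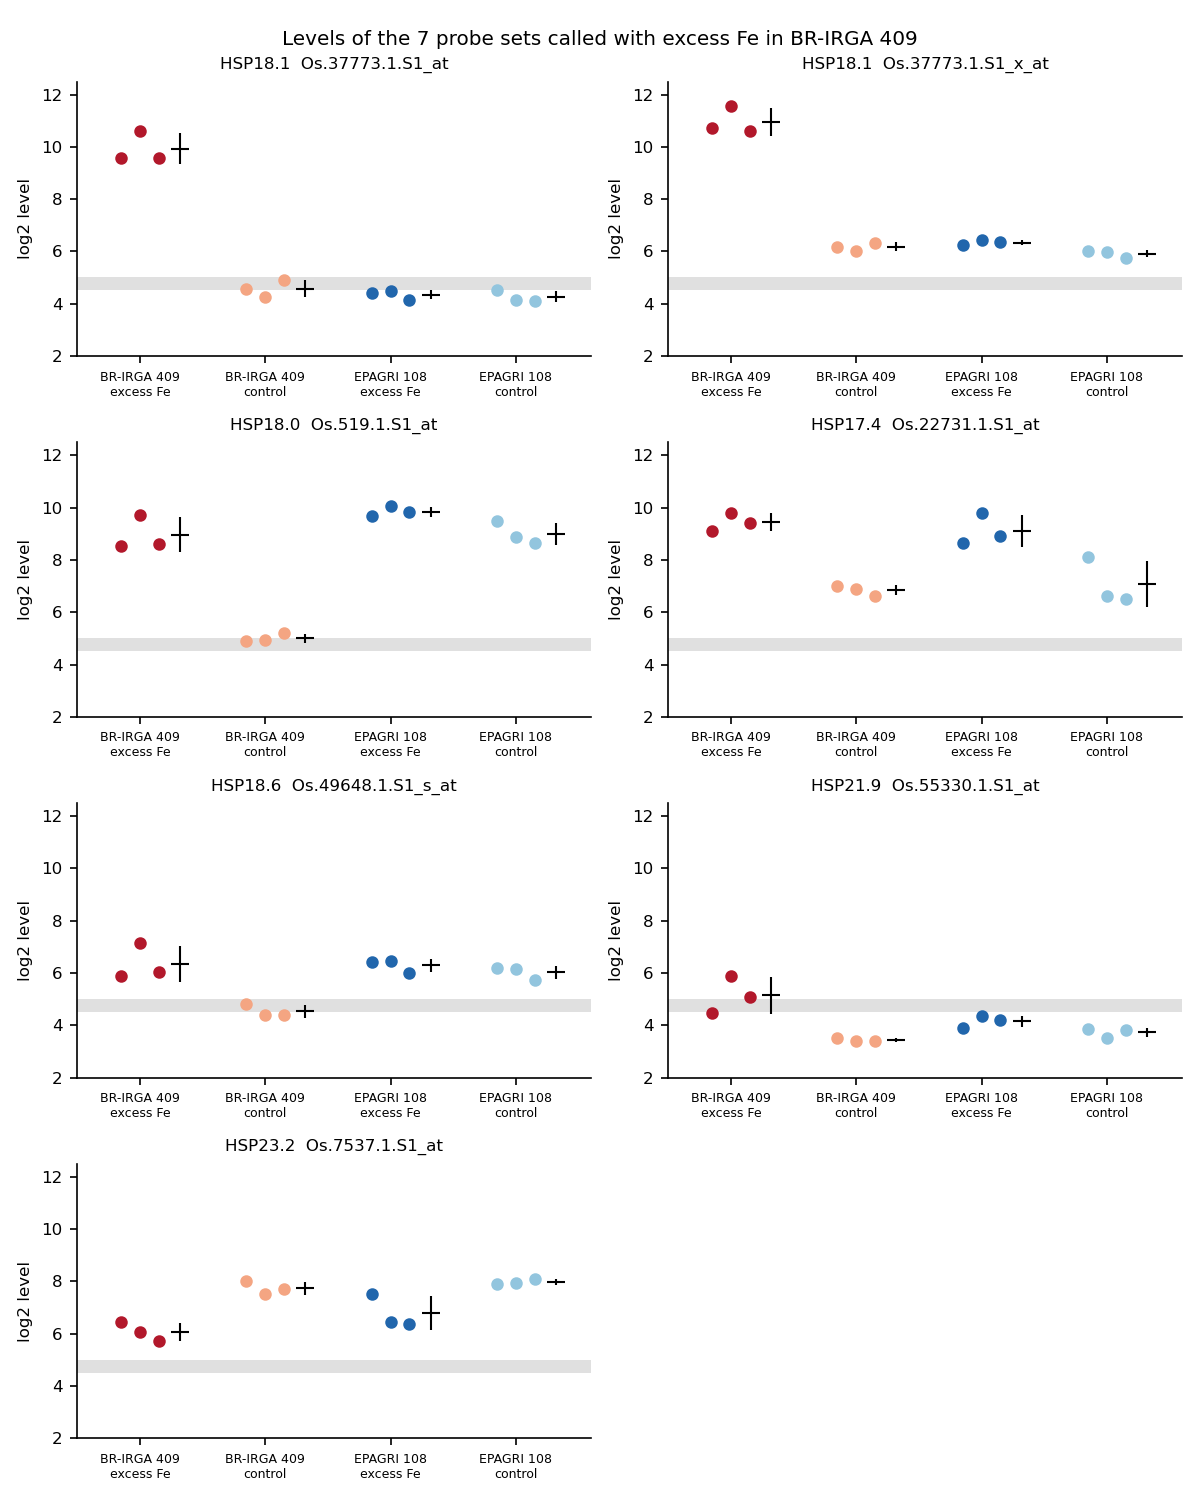
Level (log2) on every array of the 7 probe sets called with excess Fe in BR-IRGA 409; coloured points are arrays in replicate order and the black bar is the group mean with its SD (n = 3). The grey band spans the control levels of the arrays, 4.51 to 5.01; HSP18.1 on Os.37773.1.S1_at rises above it only in BR-IRGA 409 with excess Fe, and HSP23.2 is the 1 probe set that is lower with excess Fe.

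HSP23.2, which carries a signal for the endoplasmic reticulum, was lower with excess Fe. It read 6.43, 6.06 and 5.73 in BR-IRGA 409 with excess Fe, against 8.00, 7.52 and 7.70 in control. EPAGRI 108 read 7.52, 6.44 and 6.37 with excess Fe, against 7.91, 7.95 and 8.10 in control. Groups did not overlap in either cultivar. The change was -1.67 ± 0.27 in BR-IRGA 409, a 3.17-fold fall (limma adjusted p = 0.00242), and just under 3-fold without excess Fe replicate 3 (-1.49) or without control replicate 1 (-1.54). In EPAGRI 108 it was -1.21 ± 0.27 (limma adjusted p = 0.0579), and -1.62 (adjusted p = 0.00115) when both EPAGRI 108 arrays numbered 1 were left out. The responses differed by -0.46 ± 0.38, with an interval from -1.29 to 0.37, and by -2.87 with the EPAGRI 108 response turned round (limma adjusted p = 0.000493).

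HSP18.8, of class V, was the other member to move down. BR-IRGA 409 read 10.61, 10.89 and 10.77 with excess Fe, against 11.29, 11.72 and 11.54 in control, a change of -0.76 ± 0.14 that passed the adjusted p (0.00627, limma) but not 3-fold. EPAGRI 108 read 11.30, 11.23 and 11.05 with excess Fe, against 11.47, 11.85 and 11.49 in control. The EPAGRI 108 change of -0.41 ± 0.14 did not pass (adjusted p = 0.265).

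The members of mitochondria and plastids were not called with excess Fe in either cultivar. HSP26.2, a mitochondrial protein, read 7.28, 7.71 and 7.76 in BR-IRGA 409 with excess Fe, against 6.01, 6.80 and 6.28 in control, a change of 1.22 ± 0.20 that passed the adjusted p alone (0.00260, limma). In EPAGRI 108 it read 5.75, 6.16 and 6.06 with excess Fe, against 5.41, 5.70 and 5.73 in control (0.38 ± 0.20, adjusted p = 0.599). HSP24.1, also mitochondrial, read 9.41, 9.94 and 9.63 in BR-IRGA 409 with excess Fe and 9.13, 9.57 and 9.51 in control. Its EPAGRI 108 values were 9.11, 9.13 and 9.14 with excess Fe and 9.06, 8.87 and 8.93 in control. Neither HSP24.1 change passed (0.26 and 0.17, limma adjusted p = 0.402 and 0.862). HSP26.7, a plastid protein, exceeded the control level on 1 array, BR-IRGA 409 excess Fe replicate 2 (4.80), and read between 3.19 and 3.93 on the others. No change can be read for HSP26.7.

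HSP16.0, a peroxisomal protein, read 6.07, 6.33 and 6.19 in BR-IRGA 409 with excess Fe and 6.26, 6.00 and 6.31 in control. EPAGRI 108 read 6.47, 6.28 and 6.34 with excess Fe and 6.31, 5.96 and 5.54 in control. These groups overlapped in both cultivars. HSP22.3, of class VI, gave 6.01, 6.51 and 6.33 in BR-IRGA 409 with excess Fe and 5.61, 6.38 and 6.25 in control. EPAGRI 108 gave 6.11, 6.23 and 6.43 with excess Fe and 6.09, 6.52 and 6.06 in control. HSP22.3 changed by 0.20 in BR-IRGA 409 and 0.03 in EPAGRI 108, and HSP16.0 by 0.01 and 0.43, none passing in limma (adjusted p of 0.360 or more).

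The other class I genes near HSP18.1 were above the control level on all arrays and were not called. HSP17.7 is the neighbour on its other side, and HSP17.9A lies with 4 protein-coding genes between it and HSP17.4. HSP17.7 (Os.22730.1.S1_at) read 10.59, 10.93 and 10.68 in BR-IRGA 409 with excess Fe, against 10.36, 10.43 and 10.44 in control. Its EPAGRI 108 values were 10.77, 10.76 and 10.63 with excess Fe and 10.67, 10.69 and 10.64 in control. The changes of 0.32 ± 0.10 and 0.06 ± 0.10 did not pass (limma adjusted p = 0.0889 and 0.974). A second HSP17.7 probe set, Os.22730.2.S1_at, lay between 1.82 and 2.26 on all arrays, under the control level.

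HSP17.9A read 10.18, 10.38 and 9.84 in BR-IRGA 409 with excess Fe, against 9.63, 9.64 and 9.82 in control. EPAGRI 108 read 9.41, 9.25 and 9.51 with excess Fe, against 9.38, 8.68 and 8.88 in control. Its change was 0.44 ± 0.18 in BR-IRGA 409 and 0.41 ± 0.18 in EPAGRI 108 (limma adjusted p = 0.200 and 0.439). Within this stretch of neighbours, HSP18.1 and HSP17.4 were called in BR-IRGA 409 and HSP17.7 and HSP17.9A were not.

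A second stretch of neighbours holds HSP16.6, HSP17.9B, HSP16.9C, HSP16.9A and HSP16.9B. HSP17.9B read 8.99, 9.02 and 8.92 in BR-IRGA 409 with excess Fe, against 8.24, 8.47 and 8.50 in control, a change of 0.57 ± 0.11 that passed the adjusted p alone (0.00687, limma). EPAGRI 108 read 8.84, 8.88 and 8.99 with excess Fe, against 8.68, 8.67 and 8.42 in control (0.32 ± 0.11, adjusted p = 0.261). The class I gene HSP16.9A read 4.72, 4.75 and 5.09 in BR-IRGA 409 with excess Fe and 5.04, 4.48 and 4.69 in control, close to the control level. EPAGRI 108 gave 4.72, 4.95 and 4.92 with excess Fe and 4.78, 4.62 and 5.03 in control. HSP16.9A and HSP16.9B share a synonym in the gene table, so these 2 names are less certain.

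The remaining members were near or under the control level. HSP16.9B read 2.08 to 2.62 over the excess Fe arrays and 2.19 to 2.59 over the control arrays, and HSP16.6 read 3.06 to 3.54 and 3.22 to 3.43. Both were under the control level on all arrays, so no change can be read. HSP17.8 read 5.30, 5.17 and 5.26 in BR-IRGA 409 with excess Fe and 5.13, 5.85 and 5.49 in control. EPAGRI 108 gave 4.82, 5.16 and 5.10 with excess Fe and 5.06, 5.56 and 5.30 in control. Neither change passed (-0.25 and -0.28, limma adjusted p = 0.540 and 0.723).

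Between the cultivars with excess Fe, EPAGRI 108 was called higher than BR-IRGA 409 on 1 member, against 0.590% of all probe sets, and lower on 3, against 0.596%. In control it was called higher on 2 members, against 0.604%, and lower on none by limma or by the methods' t-test, against 0.510%, with 3 members at an unadjusted p under 0.05. HSP18.1, HSP18.0 and HSP26.2 held these calls. Which EPAGRI 108 arrays stand for excess Fe and which for control follows the labels here too. By the paper, the array queries mostly japonica transcripts, whereas both cultivars are indica. Whether a probe set matches the transcripts of both cultivars equally was not tested, for the levels here or for the interaction above.

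HSP18.1 was at least 32.7-fold lower in EPAGRI 108 than in BR-IRGA 409 with excess Fe on Os.37773.1.S1_at (-5.57 ± 0.26, limma adjusted p = 2.53e-08), the values being those given above. On Os.37773.1.S1_x_at it was 24.5-fold lower (-4.62 ± 0.21, adjusted p = 1.86e-08). In control the x_at difference was -0.25 ± 0.21, with an interval from -0.70 to 0.20. Both cultivars were under the control level in control on the other probe set.

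HSP18.0 differed by probe set. On Os.31700.1.S1_at EPAGRI 108 was higher than BR-IRGA 409 in both treatments, at least 14.6-fold with excess Fe (4.59 ± 0.20, limma adjusted p = 1.81e-08) and at least 12.2-fold in control (4.44 ± 0.20, adjusted p = 2.39e-08). On Os.519.1.S1_at it was 15.9-fold higher in control (4.0 ± 0.29, adjusted p = 1.79e-06). With excess Fe that difference was 0.89 ± 0.29 (adjusted p = 0.161), and the arrays of the cultivars overlapped. On the shared probe set Os.31700.2.S1_s_at EPAGRI 108 was 0.37 ± 0.13 above BR-IRGA 409 with excess Fe and 0.43 ± 0.13 above it in control, neither passing (limma adjusted p = 0.196 and 0.110). The 3 probe sets therefore give no single level of HSP18.0 for a cultivar.

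HSP26.2 was 3.01-fold lower in EPAGRI 108 than in BR-IRGA 409 with excess Fe (-1.59 ± 0.20, limma adjusted p = 0.000311). Being near the limit of 3-fold, this call ended without EPAGRI 108 excess Fe replicate 1 (-1.47) or without BR-IRGA 409 excess Fe replicate 2 (-1.53) or 3 (-1.50). In control the difference was -0.75 ± 0.20 (adjusted p = 0.0733). HSP17.9A was lower in EPAGRI 108 by -0.74 ± 0.18 with excess Fe, which passed the adjusted p alone (0.0386), and by -0.71 ± 0.18 in control (0.0525). HSP18.6 on Os.49648.1.S1_s_at was at least 2.20-fold higher in EPAGRI 108 in control (1.50 ± 0.28, limma adjusted p = 0.00833), just under the 3-fold limit. It was called there without EPAGRI 108 control replicate 3 or without BR-IRGA 409 control replicate 1 (1.64 in each).

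**Figure D3:**
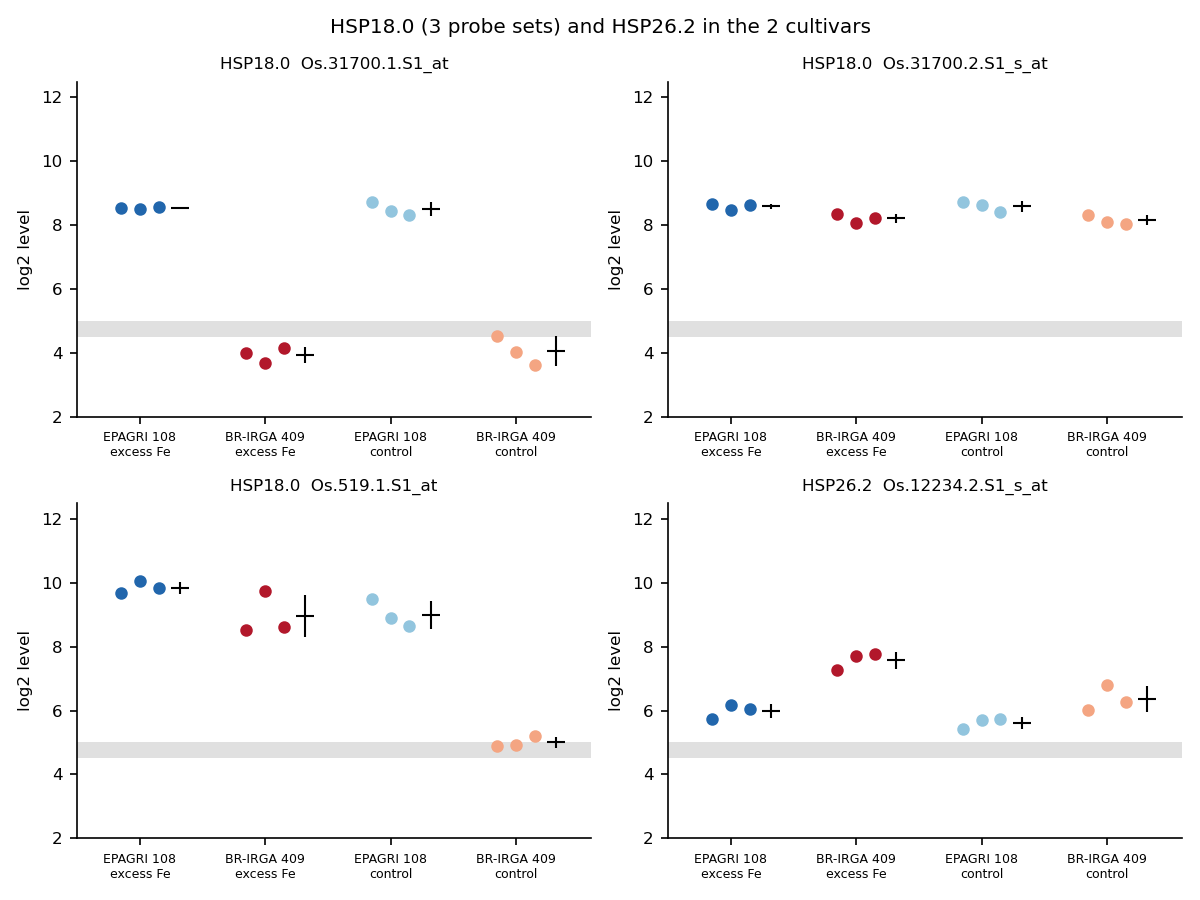
Level (log2) on every array of the 3 HSP18.0 probe sets and of HSP26.2, with EPAGRI 108 left of BR-IRGA 409 in excess Fe and then in control; points are arrays, the black bar is the mean with its SD (n = 3) and the grey band spans the control levels, 4.51 to 5.01. Os.31700.1.S1_at separates the cultivars in both treatments, Os.519.1.S1_at only in control, and Os.31700.2.S1_s_at lies between 8.04 and 8.74 on all arrays.

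Heat shock factors, the regulators of these genes, were measured on 25 probe sets of 18 genes. In BR-IRGA 409 1 probe set was called higher with excess Fe, that of HSFA4D, against 1.10% of all probe sets. Limma called none lower, against 0.250% of all probe sets, with none at an unadjusted p under 0.05 on that side. HSFA4D (LOC_Os05g45410), a class A factor, read 9.31, 9.34 and 8.90 in BR-IRGA 409 with excess Fe, against 6.62, 6.32 and 6.44 in control (2.73 ± 0.40, limma adjusted p = 0.00139). EPAGRI 108 gave 8.37, 8.78 and 8.90 with excess Fe, against 8.11, 6.07 and 6.27 in control (1.87 ± 0.40, adjusted p = 0.0511). EPAGRI 108 control replicate 1 stood apart here as it did for HSP17.4. HSFB1 and HSFB2B, of class B, passed the adjusted p alone in BR-IRGA 409 (1.40 and 0.81, adjusted p = 0.00362 and 0.0463). No factor was called in EPAGRI 108, against 0.283% of all probe sets higher and 0.0227% lower. There 4 factors were higher and 1 lower at an unadjusted p under 0.05. The median change of the factors was 0.20 in BR-IRGA 409 and 0.11 in EPAGRI 108 (0.07 with groups under the control level set to it). Over all probe sets these medians were -0.035 and -0.015.

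Larger chaperones refold what small heat shock proteins hold. Of HSP70 genes, LOC_Os03g16920, taken from the study's tables, read 7.72, 9.46 and 8.17 in BR-IRGA 409 with excess Fe, against 5.19, 5.43 and 5.46 in control (3.09 ± 0.40, limma adjusted p = 0.000559). EPAGRI 108 gave 6.50, 7.59 and 6.69 with excess Fe, against 6.39, 5.90 and 5.47 in control (1.01 ± 0.40, adjusted p = 0.356). BIP1, the HSP70 of the endoplasmic reticulum, changed by -0.30 ± 0.11 in BR-IRGA 409 (adjusted p = 0.152), and BIP4 was under the control level in all groups. Of HSP90 genes, LOC_Os04g01740, also from those tables, read 5.33, 7.60 and 5.94 in BR-IRGA 409 with excess Fe, against 2.53, 2.31 and 2.40 in control. That is at least 2.64-fold higher (log2 change 3.88 ± 0.48, limma adjusted p = 0.000462), and all 6 EPAGRI 108 arrays were under the control level. The other 8 HSP90 probe sets, all of the HSP81 genes, were not called in either cultivar. Over all probe sets 1.10% were called higher and 0.250% lower in BR-IRGA 409, and 0.283% and 0.0227% in EPAGRI 108. HSFA4D is listed in the study's tables as well. Those tables were made from these arrays, so the rise of both LOC genes is not independent of how they were chosen.

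Of 3 HSP100 genes, the disaggregases that pull proteins out of aggregates, limma called none with excess Fe in either cultivar, and 1 had an unadjusted p under 0.05, in BR-IRGA 409. CLPB1 differed between the cultivars instead, reading 4.43, 4.55 and 4.48 in EPAGRI 108 with excess Fe, against 6.31, 6.94 and 6.76 in BR-IRGA 409 with excess Fe. In control it read 4.34, 4.29 and 4.48 in EPAGRI 108, against 6.22, 6.17 and 6.33 in BR-IRGA 409. EPAGRI 108 was under the control level, so CLPB1 read at least 3.43-fold lower there with excess Fe and at least 2.69-fold lower in control (limma adjusted p = 6.23e-07 and 2.92e-06). This rests on 1 probe set, whose match to each cultivar was not tested. Of 5 HSP40 genes, the partners of HSP70, limma called none with excess Fe, with 1 at an unadjusted p under 0.05 in BR-IRGA 409 and 0 in EPAGRI 108. Over all probe sets the shares called with excess Fe were 1.10% higher and 0.250% lower in BR-IRGA 409, and 0.283% and 0.0227% in EPAGRI 108. Having no call in lists this short therefore says little about them. No HSP60 or co-chaperone gene of the lists had a matching name.

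**Figure D4:**
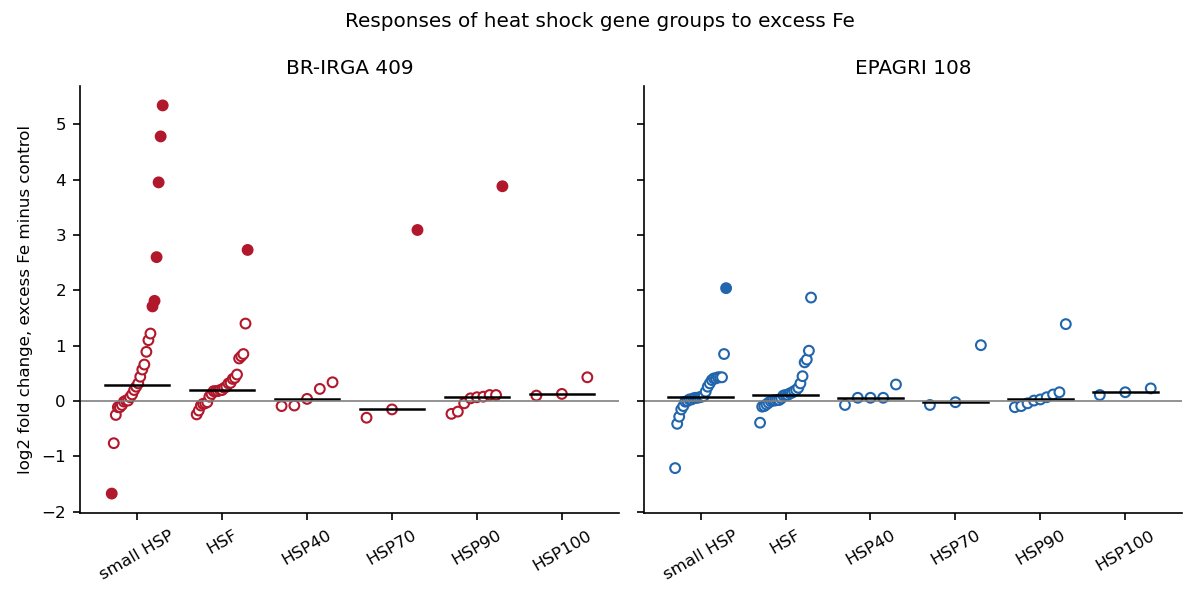
Change with excess Fe (log2 of excess Fe over control, vertical axis) of every probe set of 6 heat shock gene groups, in BR-IRGA 409 (left) and EPAGRI 108 (right); points are probe sets in order of change, filled where called, and black lines are the medians of the groups. HSF stands for heat shock factors; the small heat shock proteins spread from -1.67 to 5.34 in BR-IRGA 409 and from -1.21 to 2.04 in EPAGRI 108.

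Likeness to HSP18.1 (Os.37773.1.S1_at) over the 12 arrays was measured by Pearson's r on 33485 probe sets outside the members. Probe sets with neither 1 listed gene nor a locus in the study's tables were passed over, and some may be more alike. Of the rest, the 5 most alike are given. They were those of LOC_Os01g41430, a glycosyltransferase in the study's description (r = 0.980), LOC4337015 (0.978), LOC_Os12g22970 (0.978), LOC4336350 (0.971) and LPR1 (LOC_Os01g03530, 0.965). All values rest on the same 12 arrays, of which 3 carry the high HSP18.1 level, and are given as a description.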

How the data were processed

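The values used are the deposited log2 values, which the authors computed with RMA in ArrayAssist from scans read with GCOS. Their methods add a fixed quantity of unstated size to the linear values. The lowest deposited value of a tested probe set was 1.507 in log2, so a quantity held in these values can be no larger than that level. Small folds of dim probe sets depend on any such quantity. Of 57381 probe sets, 123 are array controls and entered no test.

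Group means were fitted with limma 3.58.1 (R 4.3.3) on all 12 arrays with 8 residual degrees of freedom, and p-values were adjusted by Benjamini-Hochberg over 57258 probe sets. Adjusted p come from this fit unless an alternative is named beside them. A group with every array at or under the control level was given that level, which makes its fold a lower bound ("at least"). Python 3.11.15 with pandas 2.3.3 and, for plots, matplotlib 3.10.9 was used.

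The members and the gene lists were chosen with earlier results of these data known. Every member is named, with values on each array for those called or above the control level on at least 3 arrays. The methods' t-test, other scales, filters, pairings and sets of arrays were tried as alternatives. Gene records that carry names of both a heat shock factor and an acireductone dioxygenase were not used.

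Deviations from group means of same-numbered arrays within a cultivar correlated at 0.108 to 0.490, above the pairing threshold of 0.1, so their block is given where it changes a call. Of 18 same-numbered pairs of different groups, within or between cultivars, 15 passed that threshold. Arrays numbered 1 correlated positively with each other over all 4 groups (0.266 to 0.490). With arrays numbered 2 or 3 of another group they correlated negatively (-0.393 to -0.0653). The arrays numbered 1 thus shared a pattern, and the labels do not say what the number stands for. Differently numbered pairs of arrays 2 and 3 correlated at up to 0.314, so pairing by number is not established for these. No 2 arrays were copies, since at most 0.265% of values were identical. No sequences or genome coordinates were used here.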

Additional observations from a re-analysis of the deposited data

Results flagged for a closer look

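The response to excess Fe differed between the cultivars for HSP18.1 and HSP18.0 by the interaction term in limma, which tests that difference. The BR-IRGA 409 response exceeded that of EPAGRI 108 by 5.25 in log2 on the HSP18.1 probe set Os.37773.1.S1_at and by 4.36 on its second probe set Os.37773.1.S1_x_at. For HSP18.0 the excess was 3.11 on Os.519.1.S1_at. With 16 added to the linear values it was 2.59 and no longer called (limma adjusted p = 0.0632). These differences follow the direction that the labels give EPAGRI 108. On Os.37773.1.S1_at the 6 EPAGRI 108 arrays and the 3 BR-IRGA 409 control arrays lay under the control level, which leaves the EPAGRI 108 response there unread. Of the other 2 HSP18.0 probe sets, Os.31700.2.S1_s_at gave a difference of 0.07, and Os.31700.1.S1_at gives none that can be read because all 6 BR-IRGA 409 arrays lay under the control level.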

How the results depend on the processing

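No called member changed direction under any alternative, apart from the EPAGRI 108 changes that one of them turns by construction. With 16 added to the linear values, excess Fe changed 4 members in BR-IRGA 409 and 0 in EPAGRI 108, where the values as deposited gave 7 and 1. The methods' t-test after adjustment gave the same 4 and 0. Without a minimum fold, 11 were called in BR-IRGA 409. In EPAGRI 108 the count was also 0 when only the arrays of the 2 groups were fitted and with same-numbered arrays as a replicate block within each cultivar, and 2 when both EPAGRI 108 arrays numbered 1 were left out, an alternative chosen after seeing the data. In each of these settings with 0, limma or the t-test called 0 of all 57258 probe sets in EPAGRI 108, and without both arrays numbered 1 limma called 520 higher and 78 lower. With the EPAGRI 108 response turned round, also chosen after seeing the data, the interaction called 8 members in place of 3. Over all probe sets it then called 1299 positive and 539 negative, in place of 49 and 31. With the replicate block within each cultivar the other counts stayed at 7 in BR-IRGA 409 and 3 for the interaction, and with the block over all 4 groups all counts were unchanged (7, 1, 3, 4 and 2). Leaving out 1 array at a time gave 5 to 7 calls in BR-IRGA 409, 0 to 1 in EPAGRI 108, 3 in the interaction, 3 to 4 between the cultivars with excess Fe and 2 to 3 in control. Over single members, 2680 values kept their side of the threshold, 32 lost it and 14 gained it. Precision is limited by 3 arrays a group, and 13 of 26 members were not above the control level on every array.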
